A study of Mus musculus with 5 samples.

Results

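The genes described here are 10 genes of the epithelial-to-mesenchymal transition (EMT) and of the mesenchymal state: the transcription factor genes Snai1, Snai2, Zeb1, Zeb2, Twist1 and Twist2, the cadherin genes Cdh2 and Cdh11, and Vim and Fn1. They were taken by symbol, without regard to their values, from the 15180 genes of the deposited table, and all 10 were present. The cells were podoplanin-positive and negative for CD45, EpCAM and E-cadherin, sorted live from KPC mouse pancreatic tumours. Mice had received vehicle (3 libraries) or LDE225 (2 libraries) by gavage for 14 days after tumours had formed. LDE225, or sonidegib, inhibits Smoothened, which relays the Hedgehog signal across the cell membrane. The labels used here give neither the alleles nor the age of the mice. They do not state how many mice stand behind the libraries, so a p-value reflects only the spread between libraries, which may be technical.

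EMT is a programme by which epithelial cells loosen their junctions and acquire the shape and motility of mesenchymal cells. SNAIL (Snai1, Snai2), ZEB (Zeb1, Zeb2) and TWIST (Twist1, Twist2) factors bind E-box sequences and repress E-cadherin and other epithelial genes. Fibroblasts are mesenchymal cells that express such factors as part of their own state, and they carry N-cadherin (Cdh2), cadherin-11 (Cdh11), the intermediate filament protein vimentin (Vim) and fibronectin (Fn1).

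The ZEB genes differed from the other 8 in their untranslated sequence. The microRNAs of the miR-200 family, abundant in epithelia and a textbook brake on ZEB1 and ZEB2, fall into 2 groups by seed. Their mature sequences are shown because the seed, in capitals (bases 2 to 8), defines the sites counted next (RefSeq, GRCm38.p6).
mmu-miR-200b-3p: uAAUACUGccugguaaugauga
mmu-miR-200c-3p: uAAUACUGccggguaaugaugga
mmu-miR-429-3p: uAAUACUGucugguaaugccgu
mmu-miR-200a-3p: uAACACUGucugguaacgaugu
mmu-miR-141-3p: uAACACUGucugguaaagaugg
The longest annotated 3′ untranslated region of Zeb1 (2401 bases) and of Zeb2 (4941 bases) each held 9 sites complementary to these seeds, namely 5 of CAGTATT and 4 of CAGTGTT. Only 3 of 14995 genes with such a region, Zeb1 and Zeb2 among them, held at least 9 sites, or 0.02%, and 29% held any. Snai2 and Fn1 held 2 sites each, Snai1 and Cdh11 held 1 each, and Twist1, Twist2, Cdh2 and Vim held 0. The deposited genes are all protein-coding, so the microRNAs themselves were not analysed here, and a match describes the sequence without showing regulation.

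Motifs were sought in start-site windows of 300 bases (250 before the start to 50 after) of Snai1, Twist1, Twist2, Vim and Zeb2. The E-box CAGGTG, read on both strands (reverse complement CACCTG), is bound by SNAIL and ZEB proteins and occurred in 20.2% of 32851 such windows in the genome. Among the members searched, the window of Snai1 alone held it, at position -126 from the start. That window is shown with the E-box in capitals (chr2:167537945-167538244, plus strand, RefSeq, GRCm38.p6).
Snai1: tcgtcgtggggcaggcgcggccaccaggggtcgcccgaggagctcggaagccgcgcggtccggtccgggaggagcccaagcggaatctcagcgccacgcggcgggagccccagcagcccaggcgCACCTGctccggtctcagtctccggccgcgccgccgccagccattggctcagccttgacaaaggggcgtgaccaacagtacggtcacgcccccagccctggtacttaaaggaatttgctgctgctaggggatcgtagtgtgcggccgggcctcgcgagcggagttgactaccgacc
The GLI motif GACCACCCA (reverse complement TGGGTGGTC), through which Hedgehog signalling acts on its targets, was searched in the same windows. It was found in none of the windows of the members searched, which says only that these letters are absent there. Zeb1 and Cdh2 were not covered. The motif occurred in 0.253% of all windows.

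Between 7578822 and 14083280 reads per library lay on the deposited genes, with more in both LDE225 libraries than in any vehicle library. Gli1, the standard readout of Hedgehog signalling, was at 315, 463 and 264 DESeq2-normalised counts in vehicle 1, 2 and 3 and at 22.5 and 14.4 in LDE225 1 and 2 (log2 fold change -4.16, limma adjusted p = 0.0355). Its log2 fold change lay between -4.46 and -3.85 when each library was left out. The adjusted p missed 0.05 without vehicle 1 (0.102) or vehicle 3 (0.0592), without the trend in limma (0.169) and in edgeR (0.0552). It stayed under 0.05 with the other pseudocounts, filters and scalings, and was 1.95e-20 in DESeq2. For the fits without an LDE225 library, which leave 1 in that group, only the effect size is given here. Another target, the receptor gene Ptch1, averaged 688 ± 341 in the vehicle libraries (SD, n = 3) and 193 ± 19.7 in the LDE225 libraries (SD, n = 2; adjusted p = 0.159), and Hhip was at 14.0 in vehicle 3 and at 0 elsewhere. Fibroblast markers were abundant, with Col1a1, Col1a2 and Dcn the highest of 6, and their summed level ran from 400729 to 753729 with vehicle and from 693637 to 746881 with LDE225, a sum made up mostly of the collagens. Epithelial genes were not at 0 in the sorted cells, as described below.

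All 10 genes passed the filter on low values (a mean of at least 10 normalised counts). Normalised counts were divided by the length of all annotated exons so that genes could be set side by side. On this scale Fn1 stood first, with a median of 13202 normalised counts per kb over the 5 libraries (range 11930 to 19026), above 99.9% of 15150 genes. Vim followed at 6239 (4714 to 6685), above 99.8% of genes, and Cdh11 at 685 (657 to 1024). The next 5 genes had ranges that each overlapped that of the next in order, with medians of 272 per kb for Snai1 (130 to 331), 153 for Twist1 (121 to 159), 149 for Cdh2 (68.0 to 203), 140 for Zeb2 (98.8 to 141) and 88.8 for Zeb1 (59.6 to 126). Of these 5 only Snai1 and Zeb1 had ranges that did not overlap. Snai2, at 17.7 per kb (16.1 to 37.7), and Twist2, at 12.2 (5.62 to 20.9), were the lowest and overlapped each other. On this scale Fn1, Vim and Cdh11 thus differed from each other and from the other genes by more than the spread of the libraries, as did Snai2 and Twist2 from the genes above them. That spread does not cover the choice of length, which ran from 1621 bases for Snai1 to 19942 for Zeb2. Which of the annotated exons the cells used was not tested. Within the SNAIL family Snai1 was between 7.35 and 16.8 times Snai2 per kb in the 5 libraries, and Twist1 between 5.78 and 23.1 times Twist2.

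LDE225 was compared with vehicle to ask whether blocking the Hedgehog signal altered the mesenchymal programme of these cells. None of the 10 genes passed the adjusted limma test, where 0.0303% of the 13183 genes tested did so. At an unadjusted p under 0.05 there were 2 of 10, Zeb1 higher and Cdh2 lower, beside 12.6% of all genes. In edgeR's quasi-likelihood test on recovered reads 0 of 10 passed (0.0152% of all genes), and in DESeq2 1 of 10 passed, Cdh2, which was lower (1.77% of all genes lower and 4.07% in either direction). The groups did not overlap for Zeb1 and Zeb2, with LDE225 higher (16.6% of all genes), and for Cdh2, with LDE225 lower (15.2%). These are 3 of 10 against 31.8% of all genes in either direction, so the count was near the background. Negative log2 fold changes were found for 7 of 10, against 49.6% of all genes. The median log2 fold change of the 10 was -0.087, beside 0.0030 for all genes tested, and without vehicle 2 it was 0.18.

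**Figure D1:**
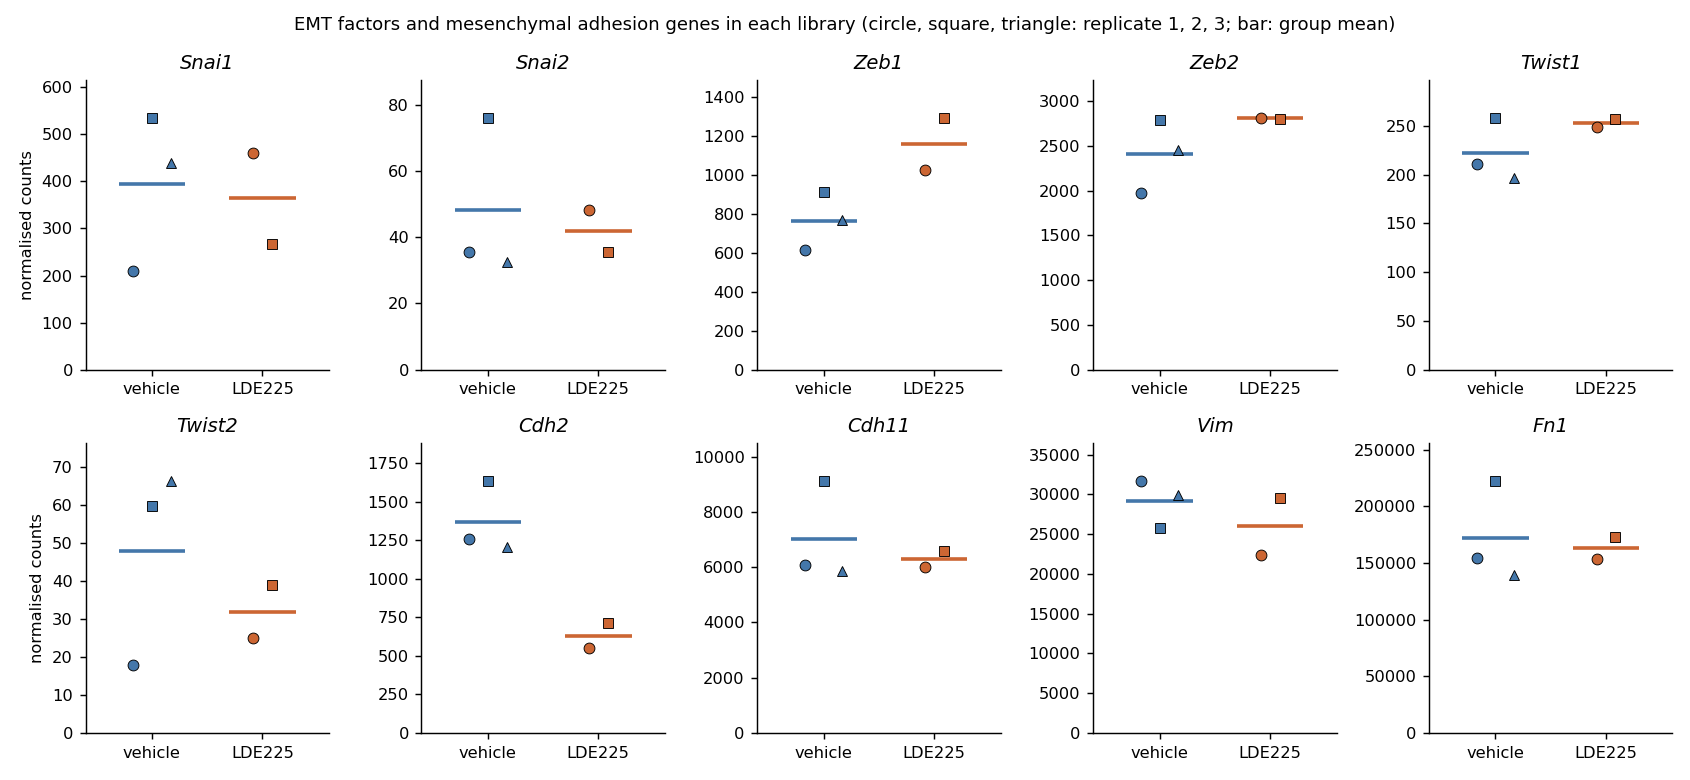
DESeq2-normalised counts (vertical axes, from 0) of the 10 genes in the 3 vehicle and 2 LDE225 libraries, with the group mean as a bar. Cdh2 lies lower in both LDE225 libraries (549 and 714) than in any vehicle library (1204 to 1634), Zeb1 lies higher (1024 and 1293 against 612 to 912), and Vim and Fn1 overlap between the groups.

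Zeb1, a zinc-finger repressor of E-cadherin, lies on chromosome 18 from 5591860 to 5775467 (GRCm38, plus strand). It was at 612, 912 and 767 normalised counts in vehicle 1, 2 and 3 and at 1024 and 1293 in LDE225 1 and 2. Both LDE225 libraries lay above every vehicle library, the nearest pair being vehicle 2 and LDE225 1. The vehicle mean was 764 ± 150 (SD, n = 3) and the LDE225 mean 1159 ± 190 (SD, n = 2), a ratio of 1.52 (log2 fold change 0.61 ± 0.21, SE, 95% interval 0.11 to 1.11, unadjusted p = 0.0243, adjusted p = 0.309). Omitting each library in turn gave log2 fold changes of 0.44 to 0.78.

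Zeb2, its paralogue, lies on chromosome 2 from 44983632 to 45117395 (minus strand). Its levels were 1970, 2796 and 2452 with vehicle and 2819 and 2800 with LDE225, so that vehicle 2 lay just under both LDE225 libraries. The log2 fold change was 0.24 ± 0.18 (SE, 95% interval -0.20 to 0.68, adjusted p = 0.654). It was 0.10 without vehicle 1 and 0.11 with libraries scaled to the same total, a scaling that put the median of all genes at -0.13. The within-library ratio of Zeb1 to Zeb2 per kb, which does not depend on the scaling between libraries, was 0.603, 0.633 and 0.608 with vehicle and 0.706 and 0.897 with LDE225. This difference of 0.37 on the log2 scale had an exact permutation p of 0.2 (two-sided), the smallest that 10 arrangements allow, and an adjusted p of 0.333 over 5 ratios, and it was 0.20 without LDE225 2. The ratios were chosen after the values were seen.

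The SNAIL genes varied within each group by as much as between the groups. Snai1, which encodes SNAIL, lies on chromosome 2 from 167538195 to 167542814 (plus strand), and its start lies inside the window shown above. It was at 210, 536 and 440 normalised counts with vehicle and at 460 and 268 with LDE225. Vehicle 1 and LDE225 2 were low, the other 3 libraries high, and the groups overlapped (log2 fold change -0.065 ± 0.43, SE, 95% interval -1.09 to 0.96, adjusted p = 0.968). Its sign turned without vehicle 2 (0.21), vehicle 3 (0.065) or LDE225 2 (0.32). Snai2, which encodes SLUG and lies on chromosome 16 from 14705852 to 14709385, was at 35.7, 76.3 and 32.6 with vehicle and at 48.2 and 35.5 with LDE225. These rest on 28 to 79 reads per library, and vehicle 2 was the high library (log2 fold change -0.11 ± 0.48, SE, 95% interval -1.26 to 1.04, adjusted p = 0.954; 0.27 without vehicle 2 and 0.11 without LDE225 2).

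Twist1 encodes a basic helix-loop-helix factor of the mesoderm and lies on chromosome 12 from 33957671 to 33959829. It was at 212, 259 and 197 normalised counts with vehicle and 249 and 257 with LDE225. Vehicle 2 was as high as the LDE225 libraries, and the log2 fold change was 0.19 ± 0.19 (SE, 95% interval -0.27 to 0.66, adjusted p = 0.735). It was 0.11 without vehicle 3, 0.31 without vehicle 2 and 0.062 with libraries scaled to the same total. Twist2, on chromosome 1 from 91801461 to 91848028, was at 17.8, 59.9 and 66.4 with vehicle and at 24.9 and 38.9 with LDE225, on 14 to 62 reads per library. Vehicle 1 was the lowest library and the other vehicle libraries the highest, so that the LDE225 values fell between them (log2 fold change -0.41 ± 0.64, SE, 95% interval -1.95 to 1.13, adjusted p = 0.847; -0.99 without vehicle 1 and -0.075 without vehicle 3). The intervals of Snai2 and Twist2 each span more than a 2-fold difference in either direction, so a change of that size was not detectable with these libraries, and that of Snai1 does so on the lower side.

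**Figure D2:**
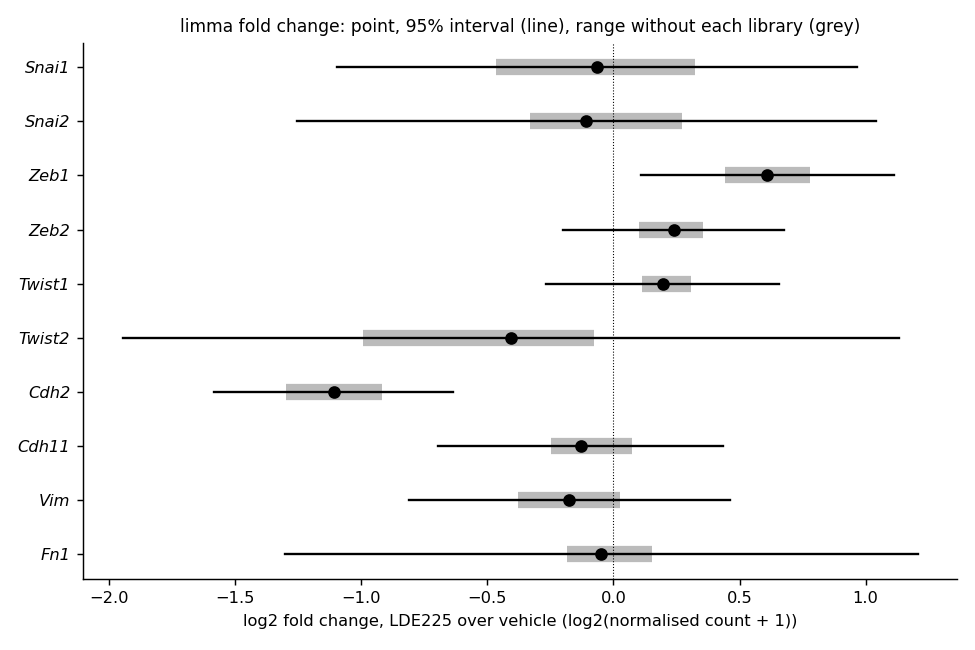
Log2 fold change of each gene, LDE225 over vehicle, from limma (point), with its 95% interval (line) and the range obtained when each library was left out (grey band). The intervals of Cdh2 (-1.58 to -0.63) and Zeb1 (0.11 to 1.11) lie to either side of 0, and those of the other 8 genes include 0.

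N-cadherin showed the largest difference of the 10. Cdh2 mediates adhesion between mesenchymal cells and replaces E-cadherin in EMT. The gene lies on chromosome 18 from 16588877 to 16809246 (minus strand) and had 1255, 1634 and 1204 normalised counts in vehicle 1, 2 and 3 and 549 and 714 in LDE225 1 and 2. Every vehicle library lay above both LDE225 libraries. The means were 1364 ± 235 (SD, n = 3) and 631 ± 117 (SD, n = 2), 2.16 times higher with vehicle (log2 fold change -1.11 ± 0.20, SE, 95% interval -1.58 to -0.63). The unadjusted p was 0.000992, rank 94 of 13183 genes, and the adjusted p was 0.137. On the recovered reads (985, 1692 and 1034 against 683 and 845) edgeR gave the same size without a call (-1.11, adjusted p = 0.154), while DESeq2 called it lower (-1.11, adjusted p = 0.000590). Without 1 library the log2 fold change lay between -1.30 and -0.92. These are sorted pools, in which fewer cells of a type and less RNA per cell cannot be told apart.

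Cadherin-11, a mesenchymal cadherin of fibroblasts and osteoblasts, had overlapping groups, unlike N-cadherin. Cdh11, on chromosome 8 from 102632095 to 102785642 (minus strand), was at 6095, 9122 and 5850 with vehicle and at 6004 and 6575 with LDE225. Vehicle 2 was high and the other 4 libraries lay together (log2 fold change -0.13 ± 0.24, SE, 95% interval -0.70 to 0.44, adjusted p = 0.870; 0.073 without vehicle 2). The ratio of Cdh2 to Cdh11 per kb was 0.227, 0.198 and 0.227 with vehicle and 0.101 and 0.120 with LDE225. Among the vehicle libraries it varied less than either gene alone, and it was lower in both LDE225 libraries (difference -0.98 on the log2 scale, exact permutation p = 0.2, the smallest possible, adjusted p = 0.333 over 5 ratios).

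**Figure D3:**
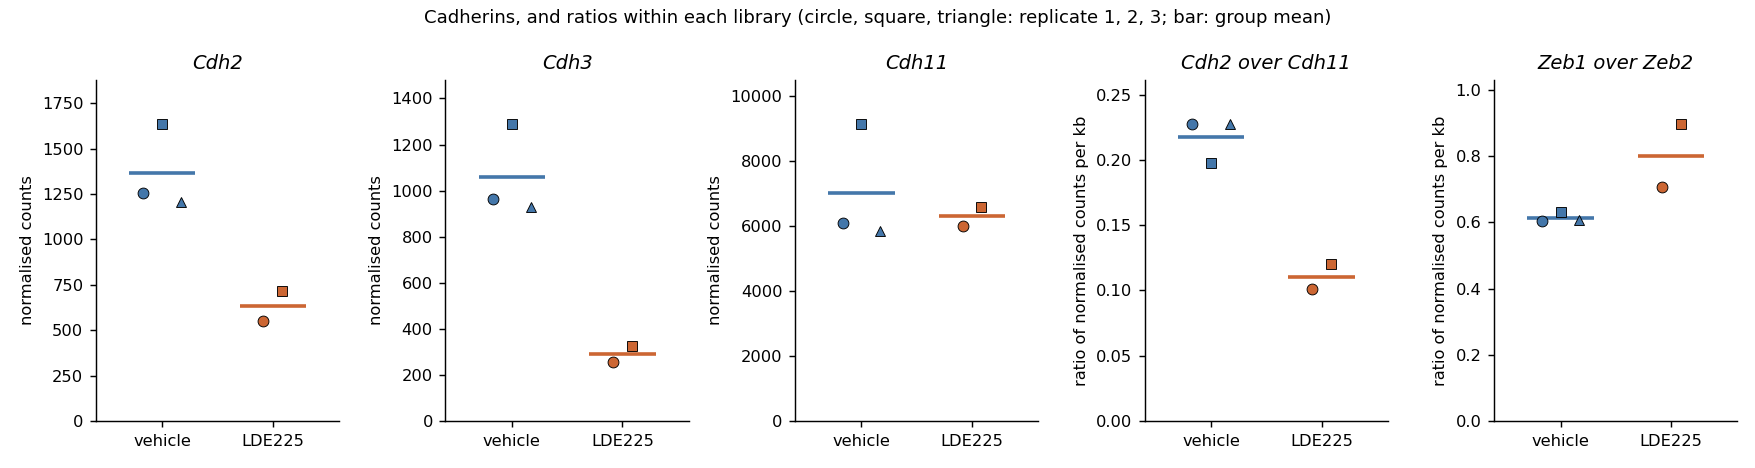
Normalised counts of Cdh2, Cdh3 and Cdh11 and the within-library ratios of Cdh2 to Cdh11 and of Zeb1 to Zeb2 (per kb of exon) in each library, all axes from 0, with the group mean as a bar. Cdh2 and Cdh3 are lower in both LDE225 libraries, Cdh11 is not, and the ratio of Cdh2 to Cdh11 goes from 0.198 to 0.227 with vehicle to 0.101 and 0.120 with LDE225.

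Vimentin, the intermediate filament protein of mesenchymal cells, had 31706, 25841 and 29885 normalised counts with vehicle and 22357 and 29593 with LDE225 (Vim, chromosome 2 from 13573927 to 13582826). LDE225 1 was the lowest library and LDE225 2 lay among the vehicle libraries (log2 fold change -0.17 ± 0.27, SE, 95% interval -0.81 to 0.46, adjusted p = 0.840; 0.027 without LDE225 1). Fibronectin, the matrix glycoprotein that integrins bind, had 154271, 222319 and 139400 with vehicle and 153163 and 173223 with LDE225 (Fn1, chromosome 1 from 71585520 to 71653200). Vehicle 2 was high and the groups overlapped (log2 fold change -0.049 ± 0.53, SE, 95% interval -1.30 to 1.21, adjusted p = 0.983), an interval that also spans more than a 2-fold difference either way. The sign of Fn1 turned without vehicle 2 (0.15) or LDE225 1 (0.040), and quantile normalisation gave -0.73 (adjusted p = 0.472). The libraries also differed from each other across the set: vehicle 2 held the highest value for 6 of the 10 genes (Snai1, Snai2, Twist1, Cdh2, Cdh11 and Fn1), and for 22.8% of all genes tested.

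By Euclidean distance between log2 profiles centred on the 5 libraries, among 10938 other genes with a mean of at least 50, the profile closest to that of Cdh2 was Chaf1a (distance 0.074), which encodes a subunit of the chromatin assembly factor that acts at replication. Chaf1a had 171, 223 and 158 with vehicle and 76.3 and 99.7 with LDE225. Next came Dtl (0.20), a ubiquitin ligase adaptor of S phase, and the histone gene H4c1 (0.24), whose reads may be divided among near-identical histone genes. Closest to Zeb1 were Serpinf1 (distance 0.064), which encodes pigment epithelium-derived factor and had 3002, 4733 and 3872 with vehicle and 5237 and 6443 with LDE225, the proteoglycan gene Bgn (0.15) and Tm7sf3 (0.16). Cdh2 and Zeb1 were taken for their small p, and the distance includes the difference between the groups. Close genes must therefore share that difference (log2 fold change -1.05 for Chaf1a and 0.61 for Serpinf1), and a link between them was not tested.

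Of the other cadherins and catenins, 10 of 15 were tested, with a median log2 fold change of -0.19 (-0.12 without vehicle 1 and -0.32 without vehicle 2), and 0 passed the adjusted limma test. DESeq2 called 2 of them lower, where it called 1.77% of all genes lower. In this and each of the next 4 lists edgeR called 0 genes. At an unadjusted p under 0.05 there were 0 higher and 3 lower, where all genes gave 6.92% higher and 5.71% lower. P-cadherin (Cdh3) had 965, 1288 and 929 with vehicle and 258 and 324 with LDE225. Its log2 fold change was -1.86 ± 0.20 (SE; adjusted p = 0.0731, edgeR adjusted p = 0.0827, DESeq2 adjusted p = 1.88e-10). Because Cdh3 differed more than Cdh2, the ratio of Cdh2 to Cdh3 per kb was 0.707, 0.689 and 0.704 with vehicle and higher in both LDE225 libraries, by 0.75 on the log2 scale (exact permutation p = 0.2, adjusted p = 0.333 over 5 ratios). Plakoglobin (Jup), which links cadherins to filaments, had 1163 ± 103 and 782 ± 1.07 (log2 fold change -0.57, adjusted p = 0.202; DESeq2 adjusted p = 0.0373). Cdh24, at 41.3 ± 6.85 and 13.6 ± 1.26, and α-catenin (Ctnna1, -0.31) also lay below vehicle in both LDE225 libraries. β-catenin (Ctnnb1), the main cytoplasmic partner of N-cadherin, had a log2 fold change of -0.073 ± 0.20 (SE, adjusted p = 0.921).

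Among 14 other EMT and mesenchymal transcription factor genes, 10 were tested (median log2 fold change -0.40, but -0.88 without vehicle 1 and -0.00073 without LDE225 1) and 0 passed in limma or DESeq2. At an unadjusted limma p under 0.05 there were 1 higher and 1 lower, beside 6.92% and 5.71% of all genes. Prrx2, a homeobox gene of mesenchyme, had a log2 fold change of 0.91 ± 0.29 (SE, adjusted p = 0.275), and its paralogue Prrx1 of 0.61 ± 0.28 (adjusted p = 0.444). The values of Sox9, a factor of duct cells and cartilage, were 333, 408 and 474 with vehicle and 262 and 218 with LDE225 (-0.74 ± 0.21, adjusted p = 0.231), and Foxq1 stood at -1.19 ± 0.68. Of 16 partners and regulators of the factors, all tested (median -0.083), 0 passed in limma. At an unadjusted limma p under 0.05, 1 was higher and 2 lower, beside the same shares of all genes. Tcf4, an E protein that pairs with TWIST, had 1220, 1291 and 1388 with vehicle and 1981 and 2564 with LDE225 (0.80 ± 0.16, adjusted p = 0.154; edgeR adjusted p = 0.172, DESeq2 adjusted p = 0.00359). The SNAIL corepressor gene Ajuba had -1.13 ± 0.33, the SNAIL kinase gene Pak1 -0.86 ± 0.33 and Lats2 0.27 ± 0.13, and the corepressor genes Ctbp1 (-0.044) and Kdm1a (-0.22) had overlapping groups.

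Fibronectin receptors and intermediate filament partners numbered 13, all tested (median -0.15, but 0.077 without LDE225 1), with 0 passing in limma. Beside 6.92% of all genes higher and 5.71% lower, 0 were higher and 2 lower at an unadjusted limma p under 0.05. The 2 were the integrin gene Itgb3 (1016 ± 252 and 511 ± 45.1, log2 fold change -0.96 ± 0.23, SE, adjusted p = 0.186) and desmin, Des (1393 ± 119 and 795 ± 193, -0.83 ± 0.19, adjusted p = 0.184). DESeq2 called both lower, where it called 1.77% of all genes lower. Nes, another filament gene, had -0.69 ± 0.32 and Itgav -0.21 ± 0.15. The α5 and β1 chains of the main fibronectin receptor had log2 fold changes of -0.082 (Itga5) and -0.010 (Itgb1).

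The epithelial genes that the SNAIL, ZEB and TWIST factors repress served also as markers of carcinoma cells. Of 20 such genes 19 were tested and 0 passed in limma. At an unadjusted limma p under 0.05, 0 were higher and 2 lower, beside 6.92% and 5.71% of all genes. DESeq2 also called these 2 (Krt8 and Krt19), where it called 1.77% of all genes lower. Krt8 was at 1576, 1868 and 2054 with vehicle and 1181 and 609 with LDE225. Its log2 fold change was -1.10 ± 0.29 (SE; adjusted p = 0.213), and Krt19 had -0.99 ± 0.26, Krt18 -0.91 ± 0.43 and Ocln -1.24 ± 0.60. The median of the list was -0.38, but it was -1.32 without LDE225 1 and 0.60 without LDE225 2, so its direction rests on which LDE225 library is kept. E-cadherin (Cdh1), one of the proteins gated against, was at 739, 530 and 561 with vehicle and at 701 and 191 with LDE225 (adjusted p = 0.621). Epcam, whose protein was also gated against, was at 325, 71.5 and 213 with vehicle and at 687 and 78.6 with LDE225 (log2 fold change 0.45, limma adjusted p = 0.893). Of the 19 genes tested, 13 had negative log2 fold changes, beside 49.6% of all genes tested. The genes named by smallest p were all lower, while others of the list, Epcam among them, had positive log2 fold changes.

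The mesothelial and proliferation lists, like Cdh2, were lower in both LDE225 libraries than in any vehicle library. Mesothelial cells, which express N-cadherin, are marked by Msln, Upk3b, Lrrn4, Wt1 and Upk1b, whose summed level was 3869 to 10349 normalised counts with vehicle and 3549 to 3667 with LDE225, so that vehicle 2 lay close to the LDE225 libraries. All 5 had negative log2 fold changes, with 0 passing in limma. DESeq2 called Msln and Upk1b, where it called 1.77% of all genes lower, while Wt1, the most abundant, had -0.061 ± 0.29 (SE). Within the vehicle group the mesothelial sum was highest in vehicle 1 (10349) and lowest in vehicle 2 (3869), where Cdh2 was at 1255 and 1634. The summed level of 10 proliferation genes was 2943 to 3502 with vehicle and 1127 to 1328 with LDE225. All 10 had negative log2 fold changes (Mki67 -1.41), and 0 passed in limma or edgeR. An unadjusted limma p under 0.05 was found for 10, beside 5.71% of all genes lower, and DESeq2 called 9, beside 1.77%. For the 20 epithelial genes the sum was 6154 to 7430 with vehicle and 6582 and 2456 in LDE225 1 and 2, where Cdh2 was at 549 and 714. All 6 fibroblast markers had positive log2 fold changes (median 0.52). Dcn, Lum and Pdpn, 3 of the 6, were higher in both LDE225 libraries than in any vehicle library, as were Zeb1 and 16.6% of all genes. Of the 6, 0 passed in limma or edgeR and 2 had an unadjusted limma p under 0.05, beside 6.92% of all genes higher. The proteoglycan gene Lum was at 2301, 2049 and 5633 with vehicle and 9800 and 10039 with LDE225. Its limma log2 fold change was 1.73 ± 0.42 (SE, unadjusted p = 0.00524). It was the 1 call of DESeq2 in this list (adjusted p = 0.0127), where 4.07% of all genes were called in either direction. Dcn, which encodes decorin, had 1.16 ± 0.44 (adjusted p = 0.354). The part of any of these lists in the values of Cdh2 or Zeb1 was not tested.

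**Figure D4:**
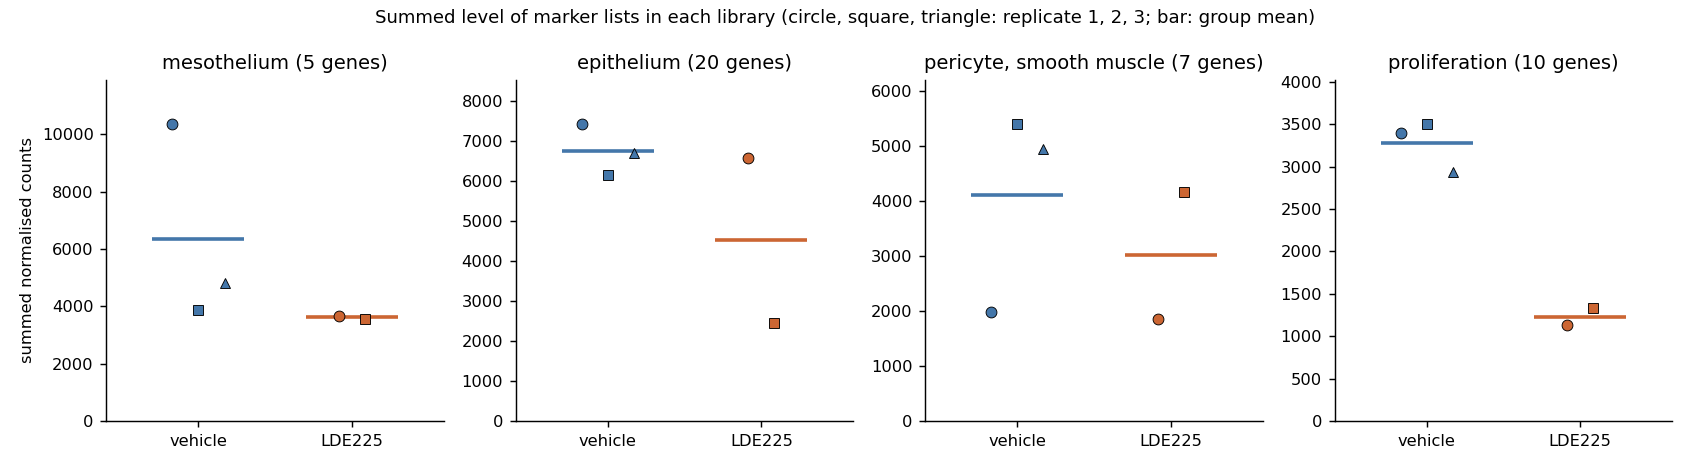
Summed normalised counts of 4 marker lists in each library (axes from 0), with the group mean as a bar. The mesothelial and proliferation sums are lower in both LDE225 libraries, whereas the epithelial and pericyte sums overlap between the groups, and LDE225 2 has the lowest epithelial sum (2456).

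The sums of the other marker lists overlapped between the groups. Pericyte and smooth muscle markers (7 genes, led by Abcc9, Cspg4 and Notch3) summed to 1973 to 5394 with vehicle and 1858 to 4168 with LDE225. Endothelial markers (8 genes, led by Kdr, Cdh5 and Vwf) summed to 470.3 to 2035 and 1014 to 1317. Leukocyte and macrophage markers (6 genes, led by Lyz2, Csf1r and Itgam) were at 343 to 1027 and 544 to 844. Schwann cell markers were nearly absent at 19.1 to 272 and 93.0 to 96.4, with 2 of 5 tested. No marker found in the table was at 0 in every library.

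Overlapping genes limit some of these values. In the GENCODE M21 annotation Zeb1 and Cdh2 are overlapped by genes on the opposite strand (2 and 1), as are Zeb2 (4, among them Zeb2os), Twist2 (1) and Fn1 (1), and no strand setting of the counting is given in the sources used here. Snai1, Snai2, Twist1 and Vim have no overlapping gene, and those that overlap Cdh11 lie on its own strand.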

How the data were processed

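The authors deposited 1 signal value per gene and library: a DESeq2-normalised count, on a linear scale and not divided by gene length. Per the submitters' processing notes, the tools were DESeq2 1.22.2, RSEM 1.2.29 and STAR 2.7.3, on GRCm38; their order is not recorded, and the annotation release and gene filter were not found in the labels. Libraries were ribosome-depleted and directional, per the labels' protocols. Each value was a whole multiple (within 0.001) of its library's smallest, for 100% of values, which gave the reads. The chi-square per degree of freedom between libraries was at least 22.8, so none was a duplicate. A further 3 columns without a header were not used.

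Values were tested as log2(value + 1) in limma 3.58.1 (R 4.3.3), with the variance trend modelled. The 13183 genes whose mean reached 10 were fitted together, and the two-sided p-values were adjusted over all of these by the Benjamini-Hochberg method, with 0.05 as threshold. Fold changes on this scale understate changes of low genes. Ratios of means use the normalised counts. Alternatives were other pseudocounts, filters and scalings, other spread models, the replicate number as a block, omission of each library in turn, and count tests on the recovered reads in DESeq2 1.42.0 and edgeR 4.0.16. The fit was also run on simulated counts with known changes, and the outcome is not reported here.

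The 10 members and the lists were chosen with earlier results of these data known, so lists are described by counts and medians without a test. Named were all members, up to 4 genes per companion list by smallest p, up to 3 markers per cell type by highest mean (fewer are given with values), the label check genes, and 3 genes closest in profile to each of the 2 members of smallest p. Ctnnb1, Ctbp1, Kdm1a, Itga5, Itgb1, Cdh1 and Epcam, and the ratios, were added after values were seen. Coordinates are those of GENCODE M21, which holds 9 of the 10 members under the same versioned identifier and Zeb2 under an earlier version. 3′ untranslated regions come from its transcripts.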

Additional observations from a re-analysis of the deposited data

How the results depend on the processing

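Of 168 values of single members under the 17 alternatives, 156 kept their direction and their side of the threshold, 1 passed it (Cdh2 in DESeq2) and 11 turned in sign. None of the members was called higher under any alternative, and DESeq2 alone called 1 lower. The log2 fold change of Cdh2 lay between -1.30 and -0.92 and that of Zeb1 between 0.44 and 0.78 over all alternatives. Those that turned did so mostly when 1 library was left out, where Snai1 ranged from -0.47 to 0.32, Snai2 from -0.33 to 0.27, Cdh11 from -0.25 to 0.073, Vim from -0.38 to 0.027 and Fn1 from -0.19 to 0.15. Snai1 was also 0.065 with the replicate block, and Fn1 0.015 with array weights. Only vehicle has a replicate 3, so the block gives the same log2 fold changes as leaving out vehicle 3. Snai1 was at 0.065 and Cdh2 at -1.19 under each, so these alternatives are not independent and this turn of Snai1 is counted under each. The median of the members ranged from -0.16 to 0.18 without 1 library, and the log2 difference of Snai1 over Snai2 from -0.20 to 0.40. Over all genes, 3 were called higher and 1 lower. These counts became 70 and 38 with array weights, 303 and 233 in DESeq2, and 16 and 5 with the replicate block, under which Cdh2 had an adjusted p of 0.0798. They were 2 lower with the same total, 0 lower without trend and 0 lower in edgeR, and ranged from 0 to 6 higher and from 0 to 4 lower without 1 library. The cause was not tested. Numbers in the titles are not said to pair libraries. Deviations from the group means correlated at 0.13 for number 1 and -0.017 for number 2. With 2 LDE225 libraries the deviations mirror each other, so these correlations cannot show whether libraries of the same number share a mouse or batch. Scaling to the same total moved the median log2 fold change of all genes from 0.0030 to -0.13. Snai2 and Twist2, on 14 to 79 reads per library, are the members that depth limits most.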
